A study of Mus musculus with 6 samples.

Results

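Of the S100 genes on mouse chromosome 3, which also carries *Txnip*, 10 were examined in liver sinusoidal endothelial cells (LSECs) of *Txnip-/-* and WT mice. The 10 members, *S100a1*, *S100a3*, *S100a4*, *S100a6*, *S100a8*, *S100a9*, *S100a10*, *S100a11*, *S100a13* and *S100a16*, were selected on their symbols, with the difference between these same libraries already known. They are 10 of the 23282 rows of the count files, and 6 of them passed the filter on low counts. Because this contrast had a part in choosing them, their values and calls are given as a description and without p-values. *Txnip* encodes an alpha-arrestin that binds thioredoxin and restrains glucose uptake.

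S100 proteins are small calcium-binding proteins with paired EF-hand motifs that mostly work as dimers. On binding calcium they expose a surface that docks onto annexins, myosins, phosphatases and other partners inside the cell, and several are also released and act on receptors such as RAGE (*Ager*) and *Tlr4*. In the liver, *S100a8* and *S100a9* are best known as products of neutrophils and monocytes, *S100a4* of fibroblasts and macrophages, and *S100a6* of activated stellate cells.

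The study sequenced LSECs as 3 libraries from *Txnip-/-* mice, which lack the gene in the whole body and are on a C57BL/6J background, and 3 from C57BL/6J controls. The cells were obtained by collagenase perfusion, a density gradient and magnetic beads against CD146. According to the methods, isolated LSECs were kept in microvascular endothelial medium, but whether the sequenced cells were cultured is not stated. The labels name no treatment. The age and sex of the mice are not given in the sources used here. QuantSeq tags start near the polyadenylated end of a transcript, so longer transcripts give no more tags, and levels of different genes can be compared, except where other genes share their 3′ ends. Library totals were 9147764, 10193952 and 9632360 counts for *Txnip-/-* replicates 1 to 3, against WT totals of 9745357, 9951078 and 9699159. Levels are in CPM, the counts scaled to a common library size with TMM factors, as mean ± SD with n = 3 libraries per genotype, and 3 counts, taken as the floor of detection, equalled 0.286 to 0.335 CPM.

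*Txnip* counts were 269, 216 and 191 in *Txnip-/-* replicates, against 1901, 2019 and 1994 in WT. All 6 libraries matched their labels, with a level of 24.2 ± 5.15 CPM in *Txnip-/-* LSECs against 196 ± 13.3 CPM in WT (log2 fold change -3.02, SE 0.14, edgeR adjusted p = 6.94e-10, lower in 3 of 3 libraries). Without WT replicate 3 its log2 fold change was -2.97. Which exons the allele lacks is not given in the sources used here, so remaining 3′ tags cannot be assigned to a full-length transcript.

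The WT libraries were not alike. The chi-square distance per degree of freedom was 3.93 between WT replicates 1 and 2, but 37.0 and 40.2 between either of them and WT replicate 3. From WT replicate 3 to the *Txnip-/-* libraries it was 13.3 to 17.1, a shorter distance. The ribosomal RNA precursor *Rn45s* took 17.8% of the counts of WT replicate 3, close to the 17.0%, 18.6% and 16.8% of the *Txnip-/-* libraries and above the 10% and 9.68% of WT replicates 1 and 2. *Rn45s* was kept in these distances, in which abundant genes weigh most, so its share is part of them. Its part was not tested, and distances without it were not computed. Log2 fold changes of the 6 tested members are therefore given with and without WT replicate 3.

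The clearest differences among the S100 genes lay in *S100a11* and *S100a6*, and they ran in opposite directions. *S100a11* was the most abundant member in WT LSECs and was lower in every *Txnip-/-* library, while *S100a6* was higher in all *Txnip-/-* libraries. *S100a13* and *S100a1* had means lower by smaller amounts that edgeR did not call with all libraries and the filter, and *S100a16* and *S100a10* overlapped between the genotypes. *S100a3*, *S100a4*, *S100a8* and *S100a9* were at or near 0.

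*S100a11* (calgizzarin) binds annexins at membranes and is linked to membrane repair and cell growth control. Its counts were 1790, 2746 and 1938 in *Txnip-/-* replicates, against 6099, 7026 and 4801 in WT. The genotypes were far apart: the highest *Txnip-/-* library, replicate 2, had 279.9 CPM and the lowest WT library, replicate 3, had 507.8 CPM. The mean level was 229 ± 44.3 CPM in *Txnip-/-* LSECs against 590 ± 80.8 CPM in WT, a log2 fold change of -1.37 (SE 0.12). Without WT replicate 3 the log2 fold change was -1.46.

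*S100a6* (calcyclin) binds annexins and the calcyclin-binding protein *Cacybp*. Its counts were 406, 525 and 385 in *Txnip-/-* replicates, against 269, 280 and 265 in WT. The WT libraries were nearly equal, and each *Txnip-/-* library was above all of them. The level was 46.7 ± 6.29 CPM in *Txnip-/-* LSECs against 27.0 ± 0.956 CPM in WT, a log2 fold change of 0.79 (SE 0.15), and it was 0.82 without WT replicate 3.

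*S100a13*, which takes part in the unconventional release of *Fgf1* and *Il1a*, had counts of 1171, 1484 and 1263 in *Txnip-/-* replicates, against 1910, 2218 and 1467 in WT. The genotypes did not overlap in CPM but came close, with 151.3 CPM in *Txnip-/-* replicate 2 and 155.2 CPM in WT replicate 3. The mean was 139 ± 10.8 CPM in *Txnip-/-* LSECs against 184 ± 28.1 CPM in WT, a log2 fold change of -0.41 (SE 0.11). WT replicate 3 was the lowest WT library for this gene, and without it the log2 fold change was -0.52.

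*S100a1*, best known as a regulator of calcium cycling in heart and skeletal muscle, had counts of 279, 327 and 289 in *Txnip-/-* replicates, against 343, 381 and 449 in WT. The genotypes only just failed to overlap, at 33.33 CPM in *Txnip-/-* replicate 2 and 33.39 CPM in WT replicate 1. The level was 31.8 ± 1.34 CPM in *Txnip-/-* LSECs against 39.1 ± 7.45 CPM in WT, a log2 fold change of -0.30 (SE 0.16). Here WT replicate 3 was the highest WT library, and the log2 fold change was -0.13 without it, so most of the difference came from that library.

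*S100a16*, a widely expressed member with an unusual EF-hand, had counts of 4031, 4674 and 4049 in *Txnip-/-* replicates, against 4326, 4849 and 4545 in WT. Its level was 453 ± 21.9 CPM and 455 ± 30.5 CPM in *Txnip-/-* and WT LSECs, a difference far smaller than the spread within either genotype. Its log2 fold change was -0.0045, and 0.04, with the opposite sign, without WT replicate 3. *S100a10* (p11), the calcium-independent member that forms a tetramer with annexin *Anxa2*, had counts of 1834, 1999 and 2041 in *Txnip-/-* replicates, against 1980, 2217 and 1796 in WT. Its level was 209 ± 8.06 CPM and 198 ± 11.5 CPM, with a log2 fold change of 0.08 (SE 0.09), or 0.05 without WT replicate 3, and its libraries overlapped.

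**Figure D1:**
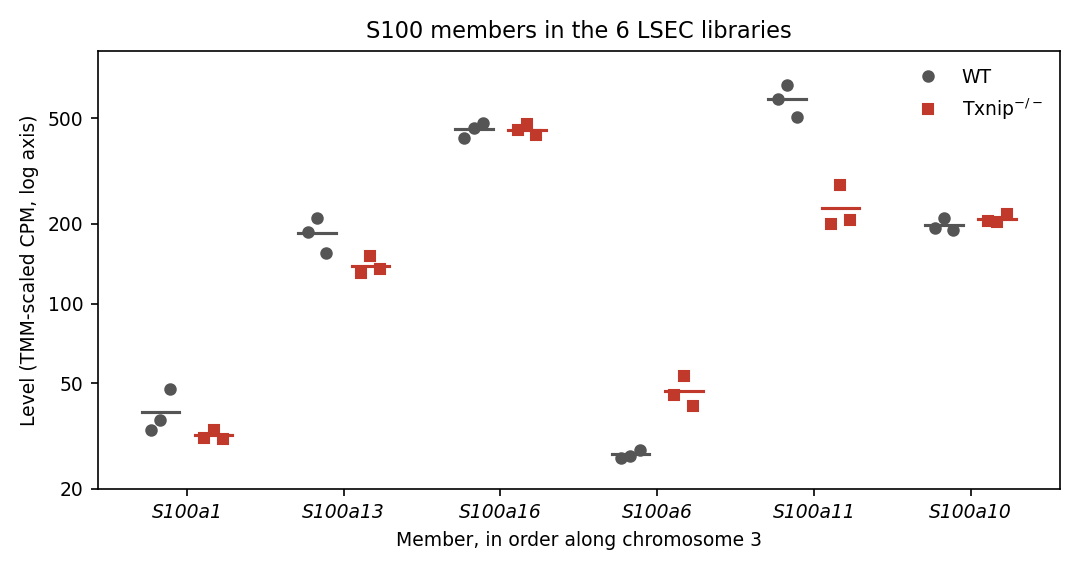
Level of each of the 6 S100 members above the filter, in TMM-scaled CPM on a log axis, with 1 point per library (circles, WT; squares, *Txnip-/-*) and a line at each mean, n = 3 libraries per genotype. *S100a11* lies between 199.9 and 279.9 CPM in *Txnip-/-* libraries and is at least 507.8 CPM in each WT library, whereas *S100a16* and *S100a10* overlap.

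The remaining members gave too few counts to be compared. *S100a3*, a gene of the hair cuticle, had no count in any library. *S100a4*, which binds the nonmuscle myosin heavy chain *Myh9*, had 12, 12 and 0 counts in *Txnip-/-* replicates, against 2, 3 and 6 in WT. *S100a8* had 0, 11 and 13 counts in *Txnip-/-* replicates, against 0, 7 and 0 in WT. Its partner in calprotectin, *S100a9*, had 0, 4 and 0 counts in *Txnip-/-* replicates, against 4, 0 and 0 in WT. These counts are close to the floor, and no genotype difference was detectable at this depth.

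Markers of neutrophils, which make calprotectin, were also near 0. Of 12 neutrophil markers, 11 were used here and none passed the filter; *Mpo*, *Elane*, *Camp*, *Ngp* and *Retnlg* had no count in any library. The neutrophil markers summed to 4.131, 0.8155 and 0.5346 CPM in *Txnip-/-* replicates, against 1.557, 1.334 and 0.7404 CPM in WT, and the most abundant was *Mmp8*, for which *Txnip-/-* replicate 1 held 24 counts. Monocyte markers were not all near 0. Of 10 monocyte markers, 4 were tested and 0 were called by edgeR, with 2 at an unadjusted p under 0.05 and 0 by DESeq2. The mean was higher in *Txnip-/-* LSECs for 2 of those tested and lower for 2. *Ly6c2* and *Ccr2* had no count, the most abundant marker was *Vcan*, and the list summed to 30.26, 37.61 and 35.07 CPM in *Txnip-/-* replicates, against 24.24, 18.58 and 25.07 CPM in WT.

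In WT LSECs the order of the levels was *S100a11*, *S100a16*, *S100a10*, *S100a13*, *S100a1* and *S100a6*. Libraries of neighbours in this order did not overlap, except those of *S100a10* and *S100a13*. In *Txnip-/-* LSECs the order was *S100a16*, *S100a11*, *S100a10*, *S100a13*, *S100a6* and *S100a1*, and there only *S100a11* and *S100a10* overlapped. *S100a11* thus went from first to a level shared with *S100a10*, and *S100a6* and *S100a1* changed places at the low end. The place of *S100a11* is uncertain, since tags of similar copies, described below, may have been counted with it.

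The 10 members together made up 1063, 1201 and 1067 CPM in *Txnip-/-* replicates, against 1454, 1618 and 1410 CPM in WT. *S100a11* held 18.8%, 23.3% and 19.4% of that sum in *Txnip-/-* replicates, against 40.8%, 41.4% and 36.0% in WT. With *S100a11* left out, the sum was 881 ± 34.4 CPM in *Txnip-/-* LSECs against 903 ± 44.2 CPM in WT and overlapped between genotypes. The lower S100 total in *Txnip-/-* LSECs was thus almost entirely *S100a11*.

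Differentially expressed genes (DEGs) were those below 0.05 in edgeR's adjusted p with more than a 1.3-fold difference. The methods of the study give a log fold change above 1.3, taken here as a fold change; read as a log2 fold change it left 57 DEGs, and *S100a11* as the 1 member called. Of 11583 genes tested, 167 were called (1.44%), 59 higher (0.509%) and 108 lower (0.932%) in *Txnip-/-* LSECs; 1335 (11.5%) had an unadjusted p under 0.05, and DESeq2 called 219. Of the 6 members tested, 2 were called, *S100a6* higher and *S100a11* lower, and *S100a13* was also called by DESeq2 and, in edgeR, without WT replicate 3 or with no filter on low counts. The call of *S100a6* was lost without *Txnip-/-* replicate 2 (log2 fold change 0.68) and without WT replicate 1 (0.77). It was also lost with WT replicates 1 and 2 summed (0.78) and with a term for them (0.74). In each of these fits 1 member was called in place of 2. The genotypes did not overlap for 2012 genes (17.4%), with *Txnip-/-* above WT in 976 (8.43%) and below WT in 1036 (8.94%); among the members tested they did not overlap for 4, with 1 above and 3 below. Since the contrast had a part in choosing the members, nothing is read from their calls or from these shares.

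Other S100 genes of the mouse added little RNA. *S100b*, a gene of glia, had 43, 8 and 6 counts in *Txnip-/-* replicates, against 1, 3 and 23 in WT, so its highest values came from 1 library of each genotype. *S100g*, an intestinal calcium buffer, had 13, 9 and 8 counts in *Txnip-/-* replicates, against 3, 10 and 0 in WT. *S100a2*, *S100a5*, *S100a7a* and *S100a14* also lie on chromosome 3, within the stretch that holds 8 of the members, but were not selected. *S100a14* had 1 count in all, in WT replicate 2, and *S100a2*, *S100a5*, *S100a7a* and *S100z* had none.

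The members lie in separate blocks on chromosome 3, in GRCm38 coordinates of GENCODE M21, all on one side of *Txnip* (96557957 to 96561883). *S100a1*, *S100a13*, *S100a16*, *S100a3*, *S100a4*, *S100a6*, *S100a8* and *S100a9* have their leftmost bases between 90511034 and 90692632. *S100a11* (93520488 to 93526287) and *S100a10* (93555080 to 93564643) lie apart from them, with starts 3.04 Mb and just over 3 Mb from that of *Txnip*. These neighbours differed from each other: *S100a11* was lower in all *Txnip-/-* libraries while *S100a10* overlapped. In the other block *S100a6*, 5.95 Mb from *Txnip*, was higher while *S100a16*, at 6.02 Mb, overlapped.

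The DNA around a knocked-out gene is inherited with the allele, so strain variants linked to *Txnip* and the loss of *Txnip* itself cannot be told apart in these libraries. No sequence variant was read here. To place the members among their neighbours, edgeR calls were counted by distance from the *Txnip* start, leaving *Txnip* out. Within 7 Mb, 120 genes were tested and 5 were called (4.17%), which included *S100a6* and *S100a11*; of the 114 that are not members, 3 were called. On the rest of chromosome 3, 6 of 404 were called (1.49%), and on the other chromosomes 152 of 10590 (1.44%). Within 3 Mb, a stretch that holds no member, 3 of 69 were called (4.35%), and within 1 Mb 1 of 37 (2.7%). An unadjusted edgeR p under 0.05 was reached by 27 of the 120 genes within 7 Mb (22.5%), by 14.9% on the rest of chromosome 3 and by 11.4% on the other chromosomes. Without the members it was 24 of 114 within 7 Mb (21.1%), 18 of 69 within 3 Mb (26.1%) and 5 of 37 within 1 Mb (13.5%); these shares were not tested against each other.

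The called neighbours were *Ctss*, *Plekho1* and *Snx27*. *Ctss* encodes cathepsin S, a lysosomal protease of macrophages and other antigen-presenting cells. In *Txnip-/-* LSECs it fell from 58.8 ± 5.05 to 17.4 ± 1.43 CPM (log2 fold change -1.75, SE 0.15, edgeR adjusted p = 1.7e-06), lower in 3 of 3 libraries. All 12 macrophage markers tested, given below, were lower too, with a median log2 fold change of -1.46, and the part of macrophage RNA in the *Ctss* difference was not tested. *Plekho1* fell (log2 fold change -0.61, SE 0.13, edgeR adjusted p = 0.027) and *Snx27*, an endosomal sorting nexin, rose (log2 fold change 0.52, SE 0.12, edgeR adjusted p = 0.0311). Leaving out 1 library at a time ended both calls in 5 of 6 fits, with adjusted p in edgeR from 0.0677 to 0.157 for *Plekho1* and from 0.0882 to 0.137 for *Snx27*. Log2 fold changes stayed about as large in the 6 fits, from -0.65 to -0.54 for *Plekho1* and from 0.48 to 0.54 for *Snx27*. Both calls were also lost with WT replicates 1 and 2 summed and with a term for them. Without normalization factors *Snx27* was not called (log2 fold change 0.44, edgeR adjusted p = 0.113), and 4 genes were called within 7 Mb. The number called within 7 Mb was 2 without *Txnip-/-* replicate 2 or WT replicate 1, 3 without *Txnip-/-* replicate 1 or WT replicate 2, and 6 without WT replicate 3.

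**Figure D2:**
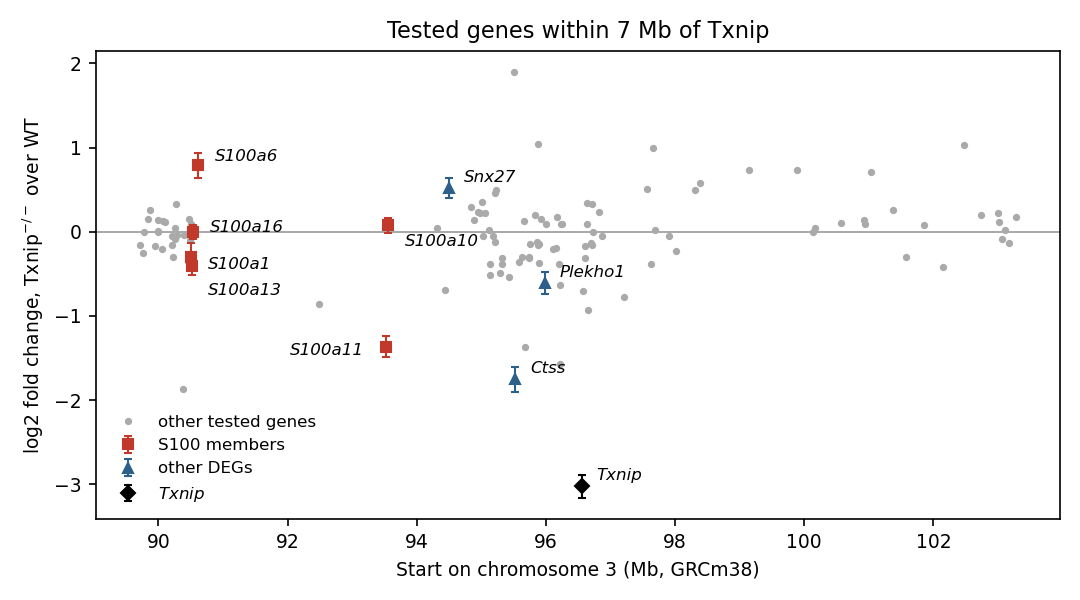
Log2 fold change (*Txnip-/-* over WT, edgeR) of each tested gene against its start on chromosome 3 (Mb, GRCm38) within 7 Mb of *Txnip*; squares are S100 members, triangles other DEGs, the diamond *Txnip* and grey points the other tested genes, with bars of 1 SE on marked genes. *S100a11* at -1.37 and *S100a10* at 0.08 lie near each other, and *S100a6* at 0.79 and *S100a16* near 0 lie in the same block.

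Tags at the 3′ ends decide these counts. For each gene the GENCODE protein-coding transcript with the longest coding sequence was read, and other ends were not; *S100a6* is annotated up to 90624181, beyond the end read at 90614414. In these transcripts the last exon of each of the 6 tested members holds a 3′ untranslated region, and no exon of another gene overlaps these ends on either strand. The last 500 bases of the *S100a11* transcript matched 9 other GENCODE genes over at least 75 bases, at 80.0% to 99.0% identity. The closest were *Gm12854* (99.0% identity over 297 bases), *Gm7665* (98.7% over 297 bases) and *S100a11-ps* (93.7% over 303 bases). None of the 9 was counted on its own here. Whether tags of these copies entered the *S100a11* count cannot be told, and the *S100a11* level is uncertain to that extent. *S100a10* matched *Gm4714* at 88.0% over 216 bases, and *S100a1*, *S100a6*, *S100a13* and *S100a16* matched no other gene. Among the members below the filter, *S100a3* and *S100a4* overlapped *Gm42674* on the same strand. They matched it at 100% identity over 112 and 302 bases, and *Gm42674* was not counted on its own here.

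RefSeq promoters (GRCm38.p6, from 250 bases before to 50 bases after each start) were found for 9 of the 10 members, all but *S100a10*. They were searched on both strands for TGANTCA, the letters bound by AP-1 factors, and for TATAAA. Of all 32851 promoter windows 7.81% held TGANTCA, and so did 2 of the 13 windows of members, 1 of *S100a11* and 1 of *S100a16*. Of all windows 13.6% held TATAAA, and so did 4 of the 13 windows of members, 1 each of *S100a3*, *S100a4*, *S100a8* and *S100a9*. A match is a description of the letters and not a bound site.

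The upstream sequences of the called members are shown because these genes went in opposite directions, and the stretch between *S100a1* and *S100a13* because these neighbours start head to head. All are on the plus strand of chromosome 3 and end before the first transcribed base in GENCODE, and capitals mark TGANTCA. The *S100a11* stretch is chr3:93520246-93520487, that of *S100a6* is chr3:90612644-90612881, and that between *S100a1* and *S100a13* is chr3:90514393-90514434.
S100a11: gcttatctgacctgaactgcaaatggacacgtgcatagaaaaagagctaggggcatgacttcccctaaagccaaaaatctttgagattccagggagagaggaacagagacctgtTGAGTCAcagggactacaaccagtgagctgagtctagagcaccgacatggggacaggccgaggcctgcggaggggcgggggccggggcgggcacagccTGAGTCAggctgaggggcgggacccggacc
S100a6: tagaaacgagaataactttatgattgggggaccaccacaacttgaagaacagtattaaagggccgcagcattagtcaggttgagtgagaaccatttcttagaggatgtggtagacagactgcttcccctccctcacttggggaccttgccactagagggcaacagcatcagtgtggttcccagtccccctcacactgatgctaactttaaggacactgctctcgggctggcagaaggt
S100a1 to S100a13: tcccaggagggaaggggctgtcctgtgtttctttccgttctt
The *S100a11* stretch holds TGAGTCA in 2 places and no TATAAA. The *S100a6* stretch and the 42 bases between the divergent starts hold neither motif.

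The genes that S100 proteins act with were followed next, since the members above work through them. Of 6 receptor genes, 5 were tested and edgeR called 0, with 2 at an unadjusted p under 0.05 and 1 called by DESeq2, and the mean was lower in *Txnip-/-* LSECs for all 5. The most abundant was *Bsg* (basigin), at 121 ± 6.37 CPM in *Txnip-/-* LSECs against 122 ± 7.81 CPM in WT. *Ager*, the gene of RAGE, did not pass the filter, with 0, 11 and 0 counts in *Txnip-/-* replicates, against 8, 7 and 0 in WT.

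Of 12 annexins, 9 were tested and edgeR called 0, with 3 at an unadjusted p under 0.05 and 0 called by DESeq2. The mean was higher in *Txnip-/-* LSECs for 6 annexins, or for 4 without normalization factors. The most abundant annexin was *Anxa2*, the partner of *S100a10*, at 556 ± 44.5 CPM in *Txnip-/-* LSECs against 454 ± 85.4 CPM in WT (log2 fold change 0.29, SE 0.11, edgeR adjusted p = 0.291). Of 16 intracellular partners, 15 were tested and edgeR called 0, with 1 at an unadjusted p under 0.05 and 0 called by DESeq2, and the most abundant was *Myh9*, the target of *S100a4*, at 1244 ± 26.6 and 1151 ± 61.7 CPM. Over these 3 lists edgeR called 0 of 29 genes, with 6 at an unadjusted p under 0.05, where the share of all genes tested was 11.5%, and DESeq2 called 1, *Cd36*. The shares were not tested against each other. Without WT replicate 3, 3 were called by edgeR, *Cd36*, *Mcam* and *Anxa2*. The median log2 fold change of the 29 genes was 0.02, beside -2.75e-05 over all genes tested.

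Of 25 EF-hand genes outside the S100 family, 19 were tested and edgeR called 0, with 3 at an unadjusted p under 0.05 and 0 called by DESeq2.

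Markers of other liver cells were also read. Of 13 Kupffer cell and macrophage markers, 12 were tested and 10 were called lower in *Txnip-/-* LSECs, and none of the 13 was at 0. For all 12 tested, every *Txnip-/-* library was below every WT library. They summed to 313.2, 305.0 and 334.4 CPM in *Txnip-/-* replicates, against 761.5, 731.1 and 749.2 CPM in WT. The most abundant was *Marco*, at 83.2 ± 7.12 and 175 ± 3.86 CPM (log2 fold change -1.07, edgeR adjusted p = 5.23e-06), and those with the smallest p were *Cd163* (log2 fold change -2.07, edgeR adjusted p = 5.48e-07), *Marco*, *C1qa* (-1.48, edgeR adjusted p = 1.04e-05) and *Vsig4* (-1.48, edgeR adjusted p = 1.18e-05). The call of *Adgre1* (edgeR adjusted p = 0.0495) was lost in 4 of the 6 fits without 1 library (edgeR adjusted p from 0.152 to 0.21), with WT replicates 1 and 2 summed (edgeR adjusted p = 0.184) and with a term for them (edgeR adjusted p = 0.123). These sums were lower in *Txnip-/-* LSECs, as was *S100a11*, and their part in its difference was not tested. In bulk RNA, fewer cells of a type and less RNA per cell cannot be told apart.

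Of 12 stellate and mesenchymal markers, 10 were tested, all with a higher mean in *Txnip-/-* LSECs (9 of them without normalization factors), and 3 were called higher, with every *Txnip-/-* library above every WT library. These were *Tagln*, the most abundant, at 48.3 ± 6.60 and 24.5 ± 4.09 CPM (log2 fold change 0.98, edgeR adjusted p = 0.00313), *Dcn* (0.99, edgeR adjusted p = 0.00497) and *Acta2* (1.47, edgeR adjusted p = 0.00677). The call of *Acta2* was lost without WT replicate 1 (edgeR adjusted p = 0.0547) and with a term for WT replicates 1 and 2 (log2 fold change 1.21, edgeR adjusted p = 0.139). The list summed to 108.1, 123.9 and 110.4 CPM in *Txnip-/-* replicates, against 55.77, 58.68 and 57.43 CPM in WT, and no marker was at 0 in all libraries. These sums were higher in *Txnip-/-* LSECs, as was *S100a6*, and their part in its difference was not tested.

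LSEC markers were read as a check of the labelled cell type. Most of their sum came from *Lyve1*, *Cdh5* and *Pecam1*, while *Clec4g* was low, at 6.01 to 8.98 CPM in *Txnip-/-* libraries and 7.30 to 9.34 CPM in WT libraries. All 14 were tested, each with a lower mean in *Txnip-/-* LSECs. Of these, 8 had an unadjusted edgeR p under 0.05, beside 11.5% of all genes tested, and the shares were not tested against each other. DESeq2 called 2, and edgeR called 2 lower. These were *Mrc1* (log2 fold change -0.76, edgeR adjusted p = 0.000718) and *Stab1* (-0.46, edgeR adjusted p = 0.00984), both scavenger receptors of the sinusoid and both lower in each *Txnip-/-* library than in any WT library. All 12 macrophage markers tested, given above, were lower too, and the part of macrophage RNA in these 2 differences was not tested. The call of *Stab1* was lost without *Txnip-/-* replicate 2 (edgeR adjusted p = 0.0839) and without replicate 3 (edgeR adjusted p = 0.0739). The list summed to 4743, 5042 and 5166 CPM in *Txnip-/-* replicates, against 7112, 7271 and 5468 CPM in WT, led by *Lyve1*. The low sum of WT replicate 3 came from *Lyve1*, at 1519.5 CPM there against 3482 and 3780 CPM in WT replicates 1 and 2. Among the other markers named here, *Stab1*, *Cdh5* and *Pecam1* were highest in WT replicate 3 of the WT libraries. *Mrc1* and *Clec4g* were lowest in it.

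Hepatocyte, lymphocyte, mesothelial and cholangiocyte markers were low. Of 10 hepatocyte markers, 6 were tested and edgeR called 0, with 1 at an unadjusted p under 0.05 and 0 by DESeq2; they were led by *Alb*, summed to 45.22, 39.65 and 55.17 CPM in *Txnip-/-* replicates, against 40.3, 39.53 and 42.2 CPM in WT, and *Tat* was at 0. Of 10 lymphocyte markers none was tested, 8 were at 0 and *Cd79a* led a list that summed to at most 0.6346 CPM in a library. Of 9 mesothelial and cholangiocyte markers 1 was tested and edgeR called 0, with 0 at an unadjusted p under 0.05 and 0 by DESeq2. That list, led by *Sox9* and with *Upk3b* at 0, summed to 7.705, 7.441 and 3.849 CPM in *Txnip-/-* replicates, against 2.725, 2.763 and 8.145 CPM in WT.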

How the data were processed

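LSEC RNA of 3 *Txnip-/-* and 3 WT libraries was used. The deposited values are whole-number counts per gene symbol: the authors aligned single-end QuantSeq 3′ reads with Bowtie2 to mm10, according to the submitters' processing notes, and counted unique and multiple alignments with Bedtools. Versions and the use of strand are not given in the sources used here. Whether the libraries came from separate mice is not stated either, so p-values measure the spread between these libraries, which may be technical. The floors of detection cover counting error only, whereas the SE of a log2 fold change comes from the edgeR fit and includes the spread between libraries.

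In R 4.3.3, edgeR 4.0.16 (quasi-likelihood test, filterByExpr, TMM factors, a model of genotype alone) was fitted to all rows that passed the filter, with Benjamini-Hochberg adjustment, and was tested on simulated data. DESeq2 1.42.0 was the other test. Of 23238 symbols, 22159 had a position in GENCODE M21. Transcript ends, 1 per gene, were compared with blastn 2.17.0. Other scalings, no filter, the replicate number as a block, each library left out, WT replicates 1 and 2 joined or given a term, no *Rn45s* and other thresholds were also tried.

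The members and all gene lists were chosen with earlier results of these data known. Genes named are every S100 gene with a count, *Txnip*, the called genes within 7 Mb of it (up to 10), every called gene and the most abundant gene of the partner lists, and of each marker list the most abundant gene and up to 4 called genes with the smallest p. Genes at 0, members of a count of 5 or fewer, *Ager*, *Adgre1*, *Cdh5*, *Pecam1* and *Clec4g* were named after their values were seen. The most abundant gene of the EF-hand list is not reported here.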

Additional observations from a re-analysis of the deposited data

How the results depend on the processing

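*S100a11* was lower and *S100a6* higher in *Txnip-/-* LSECs under all 14 other fits, with log2 fold changes from -1.54 to -1.15 and from 0.68 to 0.87. *S100a10* went from 0.08 to -0.0062 without normalization factors, and with a term for WT replicates 1 and 2 *S100a1* was at -0.58 and *S100a13* at -0.16. Of the 167 DEGs, 59 were higher; without normalization factors 180 were called and 35 were higher. The DEG count was 301 with no filter on low counts, 89 with WT replicates 1 and 2 summed, 57 at a log2 fold change above 1.3 and 89 to 301 with 1 library left out. Of the members, 1 was called with WT replicates 1 and 2 summed, with a term for them or at a log2 fold change above 1.3, *S100a11* each time, and 1 to 3 with 1 library left out. Within 7 Mb of *Txnip*, 11 genes were called with no filter, 2 with WT replicates 1 and 2 summed, 8 with a term for them, 2 at a log2 fold change above 1.3, 2 to 6 with 1 library left out, 3 within 3 Mb and 1 within 1 Mb. Of the receptor, annexin and partner genes, edgeR called 0, and 1 was called by DESeq2, without normalization factors or with the term, 2 with no filter and 0 to 3 with 1 library left out. The cause of these shifts was not tested. Fits with fewer libraries have fewer degrees of freedom, and of these the fit without WT replicate 3 called 301 DEGs, more than the 167 with all libraries.

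Libraries of the same number had deviations correlated at -0.0296, 0.0167 and -0.0469. No pairing by number was seen in these values, which cannot exclude it. With the replicate block 108 DEGs were called, 3 of them within 7 Mb of *Txnip*. *S100a6* and *S100a11* were still called, which is a description only, since the contrast had a part in choosing the members. Of the other genes named, *Plekho1*, *Snx27* and *Stab1* were not called (edgeR adjusted p = 0.0722, 0.0923 and 0.0507). At this depth the members below the filter could not be compared.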
